A study of Mus musculus with 8 samples.

Results

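Genes for making ribosomes were followed in cultured mouse muscle stem cells after loss of Chd4. The set held 50 protein-coding genes: Myc, 7 genes for RNA polymerase I and its factors, 7 nucleolar proteins and helicases, 7 core proteins of small nucleolar ribonucleoproteins (snoRNPs), and 28 factors that mature the small or the large ribosomal subunit. They were taken by gene name from a list of this pathway, chosen with earlier results of these data known, and each name had 1 row among the 20976 genes of the table. RNA had been sequenced in bulk from 4 libraries infected with a Cre adenovirus (called Cre here) and 4 infected with a GFP adenovirus (GFP), each group from 4 mice. The muscle stem cells (MuSCs) of both groups were sorted from mice with loxP-flanked Chd4, so the GFP cells carry the same unrecombined allele and were also exposed to virus. Cre removes exons 12 to 21 of Chd4, which codes for a chromatin remodelling ATPase of the NuRD complex. Cells were expanded in medium with serum and basic fibroblast growth factor before infection, and the labels give no age, sex or time after infection.

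RNA polymerase I transcribes the large precursor of the ribosomal RNAs in the nucleolus. The precursor is then modified by snoRNPs, cut, folded and packed with ribosomal proteins by assembly factors that leave the particle before it works in translation. MYC is known to raise transcription of many of these genes, and activated or dividing muscle stem cells are known to make more ribosomes than quiescent ones.

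The deposited values are reads per gene scaled between libraries, called scaled reads below. Library totals lay between 27897860 and 28876348 scaled reads, and the estimated reads before scaling lay between 26.3 and 30.4 M in Cre and between 23.2 and 38.0 M in GFP. Chd4 had 3686, 5480, 5010 and 5134 scaled reads in Cre libraries 1 to 4, against 17886, 15904, 16634 and 20121 in GFP libraries 1 to 4. The groups did not overlap, and the Cre level was 27.2% of GFP (log2 change -1.88 ± 0.14 SE, limma adjusted p = 0.00328). Here and below, a level given as a percentage of GFP is the mean log2 change turned back to a ratio. Reads from exons outside the deletion still count toward Chd4. The myogenic factor Myod1 had 32634 to 47778 scaled reads in Cre and 30708 to 40991 in GFP, and Pax7, which marks muscle stem cells, had 4381 to 6458 in Cre and 5390 to 6704 in GFP. Equal library numbers behaved as pairs: once the group means were removed, r across genes was 0.820 to 0.908 where Cre and GFP libraries shared a number and -0.597 to 0.477 where they did not. In each gene the deviations of 4 libraries from their mean sum to 0, so high r at equal numbers pushes the rest down. The gap between these ranges is therefore in part built in. The labels do not say that equal numbers share a mouse. Each comparison was therefore made without pairing, which is the main test, and with the library number as a block, called the paired test below. Of 8 muscle stem cell and myoblast markers, 3 passed as higher in the paired test (Myod1, Myog and Des at 114.6, 137.5 and 112.7% of GFP). Another 3 passed as lower (Pax7, Myf5 and Vcam1 at 90.6, 67.6 and 81.5%), and 0 passed without pairing. Over all genes 22.2% passed as higher and 21.7% as lower. The calls for Myod1, Des and Pax7 were lost in some alternative paired fits.

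Most of the 50 genes were somewhat lower in Cre than in GFP cells. The median log2 change was -0.21, which is a level of 86.3% of GFP, against -0.00081 over the 12910 genes tested. The change was below 0 in 48 members and ranged from -0.43 for the pseudouridine synthase gene Dkc1 to 0.06 for the RNA polymerase I initiation factor gene Rrn3. In bulk RNA, fewer cells that express these genes and less of their RNA per cell cannot be told apart. Its call depended on pairing. Without pairing, 0 members passed limma's test as lower or higher at an adjusted p under 0.05. The lowest adjusted p was 0.121, for Ddx18, and 22 members were lower and 0 higher at an unadjusted p under 0.05; with voom weights 0 members passed as well. The same test called 0.248% of all genes lower and 0.837% higher, and at an unadjusted p under 0.05 it put 9.3% of all genes lower and 7.41% higher. In the paired test 34 of 50 members (68.0%) passed as lower and 0 as higher, where 21.7% of all genes passed as lower and 22.2% as higher. In 12 members every Cre library lay below every GFP library, and in 0 members every Cre library lay above, against 6.17% and 4.41% of all genes.

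The drop recurred in each pair of libraries and was largest in pair 4. The median log2 change over the 50 members was -0.13 in pair 1, -0.18 in pair 2, -0.21 in pair 3 and -0.30 in pair 4. In 39 members Cre was lower in 4 of 4 pairs, in 6 members in 3 pairs, in 2 members in 2 pairs and in 3 members in 1 pair, while 27.6% of all genes were lower in 4 of 4 pairs. The 50 genes summed to 0.553, 0.533, 0.578 and 0.596% of all scaled reads in Cre libraries 1 to 4, against 0.615, 0.635, 0.69 and 0.78% in GFP libraries 1 to 4. The highest Cre sum lay below the lowest GFP sum. GFP library 4 was the highest GFP library in 38 of the 50 members. That library also had the most estimated reads before scaling, at 38.0 M, where GFP libraries 1 to 3 had 25.7, 23.2 and 25.3 M. The part of depth in this was not tested. Without pair 4 the paired test called 24 members lower instead of 34, with 0 higher.

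**Figure D1:**
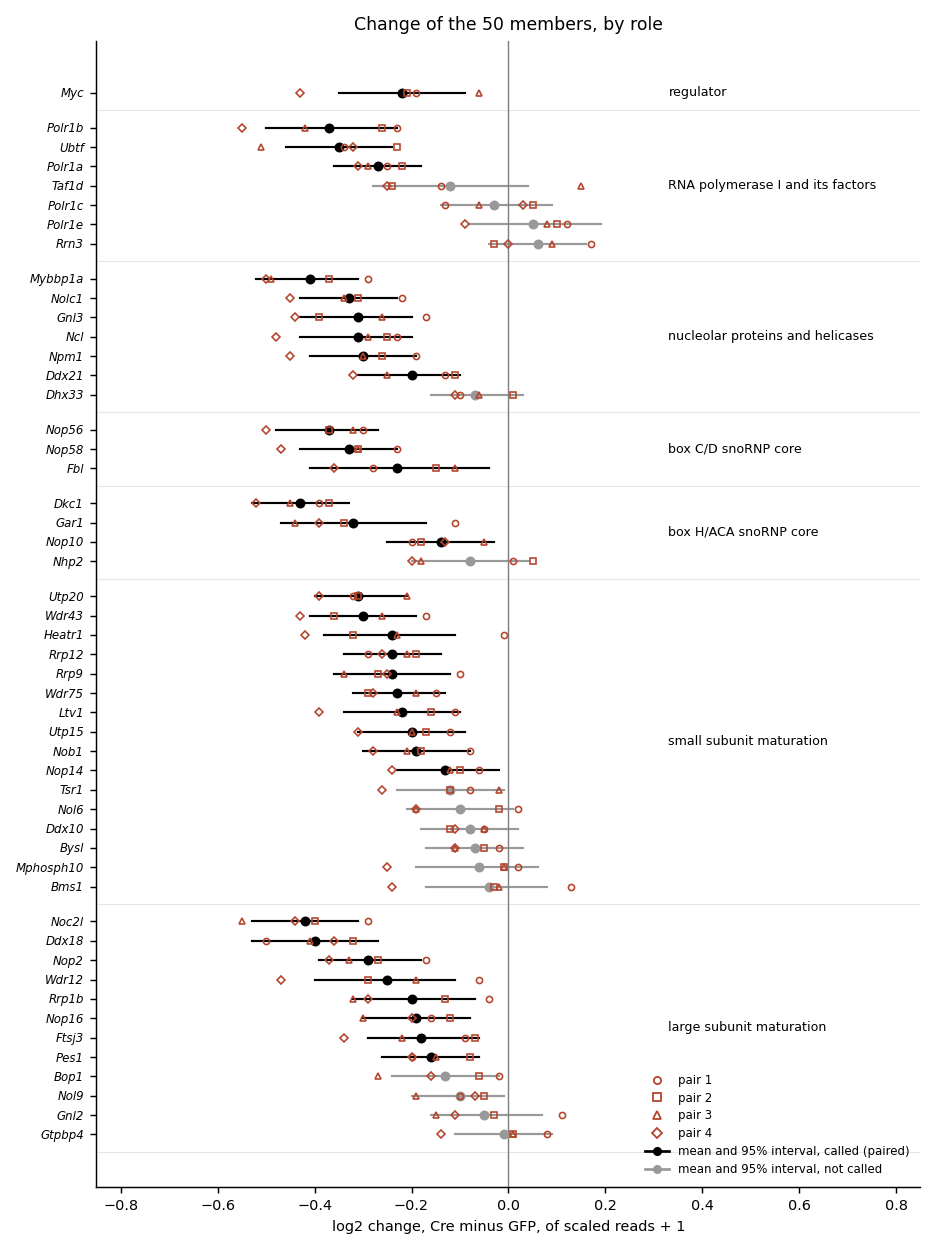
Log2 change of each of the 50 members in Cre minus GFP, grouped by role. Open symbols are the 4 same-numbered pairs and filled points the mean with its 95% interval in the paired test, black where called and grey where not; 48 means lie below 0, and the pair 4 symbols often lie farthest to the left.

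The cell state of the libraries moved with the same comparison. The 15 proliferation markers summed to 0.0731, 0.128, 0.153 and 0.192% of all scaled reads in Cre libraries 1 to 4, against 0.16, 0.212, 0.249 and 0.332% in GFP libraries 1 to 4. All 15 markers passed as lower in the paired test and 0 passed without pairing, with a median log2 change of -0.82. Over all genes 21.7% passed as lower and 22.2% as higher in the paired test. In both groups library 4 had the highest and library 1 the lowest proliferation sum, and library 4 also had the highest sum of the 50 members. The lowest sum of the 50 members was in library 2 in Cre and library 1 in GFP. The median log2 change of the proliferation markers was -1.11, -0.66, -0.71 and -0.75 in pairs 1 to 4. For the 50 members it was -0.13, -0.18, -0.21 and -0.30. Pair 1 thus had the largest drop of the markers and the smallest of the members. The 8 muscle differentiation markers summed to 0.243, 0.838, 0.941 and 0.503% in Cre, against 0.181, 0.748, 0.686 and 0.333% in GFP. All 8 passed as higher in the paired test and 0 without pairing, though the calls for Ckm and Actn2 were lost without some pairs (adjusted p up to 0.0886 and 0.135), and in both groups the sum was higher in libraries 2 and 3 than in libraries 1 and 4. The part of cell division and differentiation in the drop of the 50 genes was not tested.

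Markers of cells that a sort could carry along were mostly low, apart from Rgs5 and Acta2. The 5 endothelial markers summed to 278 to 408 scaled reads in Cre and 141 to 184 in GFP, mainly from Tek and Pecam1. The receptor gene Tek had 114 to 313 in Cre and 31 to 115 in GFP, a level of 275.8% of GFP, with a paired adjusted p of 3.28e-05 and an unpaired one of 0.175 in limma. Kdr had 14 to 46 in Cre and 2 to 14 in GFP, Pecam1 44 to 130 in Cre and 40 to 102 in GFP, and Cdh5 and Cldn5 at most 9 in any library. The 2 blood markers in the table summed to 22 to 59 in Cre and 7 to 35 in GFP, and the 3 Schwann cell markers to 67 to 77 in Cre and 37 to 110 in GFP. The 3 fibroblast markers summed to 696 to 1000 in Cre and 627 to 1484 in GFP, with Ly6a at a level of 510.5% of GFP, Cd34 at 42.5% and Pdgfra at 103.0%. The 5 pericyte and smooth muscle markers summed to 56057 to 87811 in Cre and 24849 to 45078 in GFP; nearly all of this came from Rgs5 and Acta2. Rgs5 was at 423.0% of GFP, with a paired adjusted p of 3.52e-08 and an unpaired one of 0.0277 in limma, while Acta2 was at 100.5%. Pdgfrb had 18 to 82 in Cre and 20 to 55 in GFP, Myh11 at most 9 in any library, and Cspg4 was at 117.5% of GFP. The part of such cells in the drop was not tested.

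**Figure D2:**
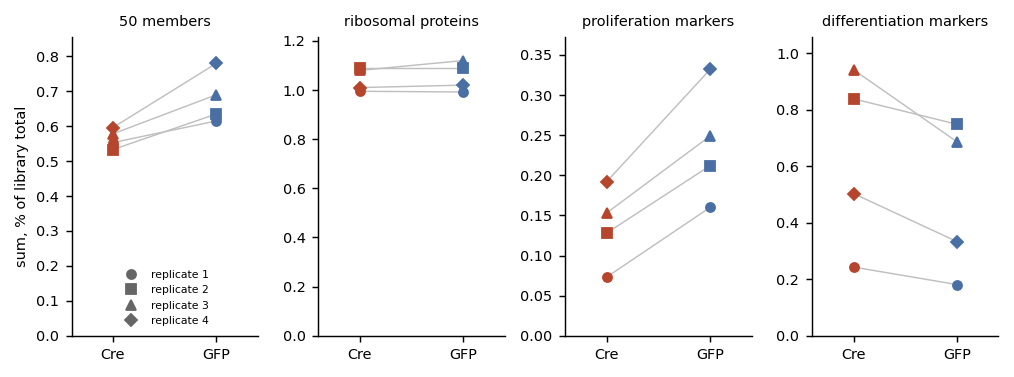
Summed scaled reads of 4 gene lists as a percentage of the library total, Cre left and GFP right, with lines joining equal library numbers. The 50 members lie at 0.533 to 0.596% in Cre and 0.615 to 0.78% in GFP, ribosomal protein genes lie at about the same level in both groups, proliferation markers are lower and differentiation markers higher in Cre in each pair.

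Myc, the transcription factor that activates many genes of this pathway, had 1714, 2211, 2519 and 2035 scaled reads in Cre libraries 1 to 4, against 1954, 2558, 2617 and 2740 in GFP libraries 1 to 4. The groups overlapped, but Cre was lower in each pair. The log2 change was -0.22, with an adjusted p of 0.492 without pairing and 0.0116 with it in limma (paired SE 0.059). The paired call was lost without pair 4, at an adjusted p of 0.0612.

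Among the RNA polymerase I genes, 3 of 7 (42.9%) passed as lower in the paired test, against 21.7% of all genes. The median log2 change was -0.12. The share of 21.7% is also the background for the counts of the other roles below. Ubtf codes for the factor that binds ribosomal DNA and keeps it open for the polymerase. It had 4068, 4235, 4183 and 4906 scaled reads in Cre, against 5152, 4970, 5971 and 6128 in GFP. The groups did not overlap, and the Cre level was 78.4% of GFP (log2 change -0.35, limma adjusted p = 0.133 unpaired and 0.000312 paired). Polr1b, a catalytic subunit, had 1212, 1266, 1433 and 1521 scaled reads in Cre, against 1418, 1519, 1922 and 2233 in GFP (log2 change -0.37, adjusted p = 0.287 unpaired and 0.000799 paired in limma). Polr1a, the largest subunit, had 3051, 3040, 3401 and 3896 in Cre, against 3617, 3547, 4171 and 4827 in GFP (log2 change -0.27, adjusted p = 0.329 unpaired and 0.000473 paired in limma). Both catalytic subunits overlapped between the groups, with the libraries numbered 3 and 4 higher than 1 and 2 in each group.

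The other 4 polymerase I genes did not pass in either test. Polr1c, a subunit shared with RNA polymerase III, had 1367, 1407, 1337 and 1577 scaled reads in Cre, against 1500, 1358, 1389 and 1542 in GFP, and its paired 95% interval ran from -0.14 to 0.09 log2. Taf1d, a subunit of the promoter selectivity factor, had 637, 763, 924 and 659 in Cre, against 701, 899, 835 and 786 in GFP, and was lower in Cre in 3 of 4 pairs. For the polymerase I subunit Polr1e the log2 change was 0.05 with a paired interval of -0.08 to 0.19. For Rrn3, which brings the polymerase to the promoter, it was 0.06 with an interval of -0.04 to 0.16. The genes for the catalytic subunits and Ubtf were thus lower in the paired test, while the intervals for Polr1c, Polr1e and Rrn3 hold no change as well as small changes.

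The nucleolar proteins and helicases had a median log2 change of -0.31, and 6 of 7 passed as lower in the paired test. Ncl, the abundant RNA-binding protein nucleolin, had 25952, 26014, 27901 and 28579 scaled reads in Cre, against 30447, 30969, 34164 and 39737 in GFP. Npm1, the histone and ribosome chaperone nucleophosmin, had 8544, 8785, 9466 and 9430 in Cre, against 9725, 10503, 11640 and 12880 in GFP. Gnl3, the GTPase nucleostemin, had 3200, 2821, 3076 and 3301 in Cre, against 3599, 3697, 3672 and 4468 in GFP. In these 3 genes every Cre library lay below every GFP library. Cre levels were 80.5% of GFP for Ncl, 81.3% for Npm1 and 80.5% for Gnl3, with unpaired limma adjusted p-values of 0.194, 0.193 and 0.146 and paired ones of 0.000828, 0.000733 and 0.000769.

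Mybbp1a, a nucleolar MYB-binding protein, had 8358, 8016, 8829 and 10326 scaled reads in Cre, against 10225, 10383, 12390 and 14586 in GFP. Its groups overlapped by a single library, Cre library 4, and its log2 change of -0.41 had a limma adjusted p of 0.193 unpaired and 8.08e-05 paired. The snoRNP chaperone gene Nolc1 and the RNA helicase gene Ddx21 also passed as lower in the paired test, with log2 changes of -0.33 and -0.20. The helicase gene Dhx33 did not pass. It had 2187, 2331, 2576 and 2873 in Cre, against 2339, 2321, 2694 and 3106 in GFP, with a paired 95% interval of -0.16 to 0.03 log2. Its values followed the library number closely in both groups.

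Box C/D snoRNPs guide methylation of ribosomal RNA, and the 3 genes for their core proteins in the set all passed as lower in the paired test. Snu13, also a core protein, is given below with the assembly factors. Nop58 had 4502, 4987, 5490 and 5256 scaled reads in Cre, against 5274, 6182, 6785 and 7299 in GFP. Nop56 had 2278, 2176, 2471 and 2969 in Cre, against 2796, 2814, 3089 and 4213 in GFP. Both overlapped between groups by 1 library or more, and both were lower in each pair, with log2 changes of -0.33 and -0.37. Their limma adjusted p-values were 0.206 and 0.278 unpaired and 0.000332 and 0.000162 paired. Fbl, the methyltransferase fibrillarin, had 234, 220, 266 and 302 in Cre, against 285, 244, 288 and 389 in GFP. Its paired adjusted p was 0.049 in limma, and the call held in 5 of 12 alternative paired fits, where the adjusted p reached 0.208.

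Box H/ACA snoRNPs guide pseudouridylation and also hold the telomerase RNA. Of their 4 core genes, 3 passed as lower in the paired test. Dkc1, the pseudouridine synthase dyskerin, had 2064, 2461, 2683 and 3029 scaled reads in Cre, against 2704, 3172, 3661 and 4350 in GFP. It had the lowest log2 change of the 50 members, at -0.43 ± 0.044 (paired SE), with a limma adjusted p of 0.252 unpaired and 4.63e-05 paired. Gar1 had 660, 653, 713 and 782 in Cre, against 712, 828, 967 and 1022 in GFP (log2 change -0.32, paired adjusted p = 0.00315 in limma). Nop10 had 1343, 1301, 1222 and 1146 in Cre, against 1543, 1473, 1263 and 1251 in GFP, with a paired adjusted p of 0.0446 in limma that held in 7 of 12 alternative paired fits. Its level ran opposite to Dkc1 across the library numbers, lowest in number 4. Nhp2 had 2088, 1842, 1838 and 1809 in Cre, against 2073, 1781, 2089 and 2079 in GFP. It did not pass, and its paired 95% interval ran from -0.20 to 0.04 log2.

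Of the 16 small subunit maturation genes, 10 passed as lower in the paired test, with a median log2 change of -0.19 over all 16. Wdr43, a protein of the early processome, had 3326, 3295, 3698 and 3632 scaled reads in Cre, against 3732, 4216, 4436 and 4887 in GFP. Wdr75, which acts in the same early complex, had 2742, 2325, 2481 and 2629 in Cre, against 3043, 2836, 2832 and 3182 in GFP. Neither gene overlapped between the groups, and the Cre levels were 81.1 and 85.5% of GFP. Their limma adjusted p-values were 0.171 and 0.201 unpaired and 0.000749 and 0.00216 paired. Ltv1 takes part in late cytoplasmic assembly and had 1738, 1861, 1786 and 1682 in Cre, against 1879, 2084, 2095 and 2201 in GFP. Nob1 is the nuclease that makes the last cut of the small subunit RNA and had 1307, 1266, 1278 and 1302 in Cre, against 1386, 1430, 1479 and 1583 in GFP. The late factors did not overlap between groups either, with log2 changes of -0.22 for Ltv1 and -0.19 for Nob1 and paired adjusted p-values of 0.0068 and 0.0126 in limma. The call for Nob1 was lost without pair 4, at an adjusted p of 0.0684.

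The other small subunit genes that passed as lower in the paired test were Utp20, Heatr1, Rrp12, Rrp9, Utp15 and Nop14, with log2 changes of -0.31, -0.24, -0.24, -0.24, -0.20 and -0.13. The call for Utp15 was lost without pair 4, and that for Nop14 held in 6 of 12 alternative paired fits. The 6 that did not pass were Tsr1, Nol6, Ddx10, Bysl, Mphosph10 and Bms1, with log2 changes between -0.12 and -0.04. Bms1, a GTPase of the processome, had 3140, 2774, 3217 and 3427 scaled reads in Cre, against 2879, 2825, 3264 and 4045 in GFP. Its values crossed between the groups in pair 1, and its paired 95% interval ran from -0.17 to 0.08 log2.

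Of the 12 large subunit maturation genes, 8 passed as lower in the paired test, again with a median log2 change of -0.19. Noc2l, related to a yeast protein needed for export of the large subunit precursor, had 2223, 2114, 2271 and 2618 scaled reads in Cre, against 2709, 2782, 3330 and 3551 in GFP. Ddx18, an RNA helicase, had 583, 661, 637 and 755 in Cre, against 826, 823, 849 and 971 in GFP. These were the members with the lowest unpaired p-values, and neither overlapped between the groups. Cre levels were 74.8% of GFP for Noc2l and 75.9% for Ddx18, with limma adjusted p-values of 0.125 and 0.121 unpaired and 0.000118 and 0.000396 paired. Nop16, a nucleolar protein, had 1470, 1426, 1317 and 1443 in Cre, against 1639, 1548, 1619 and 1658 in GFP. Pes1, a core protein of the PeBoW complex, had 2334, 2340, 2408 and 2307 in Cre, against 2684, 2481, 2681 and 2659 in GFP. Both were tight within each group and did not overlap, with log2 changes of -0.19 and -0.16 and paired adjusted p-values of 0.00954 and 0.0125 in limma. The call for Pes1 was lost without pair 4, at an adjusted p of 0.0554.

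The partners of Pes1 in the PeBoW complex were not alike in their calls. Wdr12 passed as lower in the paired test with a log2 change of -0.25, a call lost without pair 4, and Bop1 had -0.13 and did not pass, with a paired adjusted p of 0.0622 in limma. The difference between them was not tested. The methyltransferase genes Nop2 and Ftsj3 and the nucleolar gene Rrp1b passed as lower, with log2 changes of -0.29, -0.18 and -0.20. The calls for Ftsj3 and Rrp1b were lost without pair 3 and without pair 4. Nol9, Gnl2 and Gtpbp4 did not pass. Gtpbp4, a GTPase of the large subunit precursor, had 5041, 4714, 4710 and 4317 scaled reads in Cre, against 4768, 4686, 4668 and 4744 in GFP, and its paired 95% interval of -0.11 to 0.09 log2 was centred near no change. Nop2 is the neighbour of Chd4 on chromosome 6 (GRCm38). It lies at 125131909 to 125144753 on the plus strand and starts 1317 bases after the end of Chd4, which lies on the same strand. Its level in Cre was 82.1% of GFP, and the other large subunit genes ran from 74.8% for Noc2l to 99.4% for Gtpbp4. Whether its place next to Chd4 had a part in its level was not tested.

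**Figure D3:**
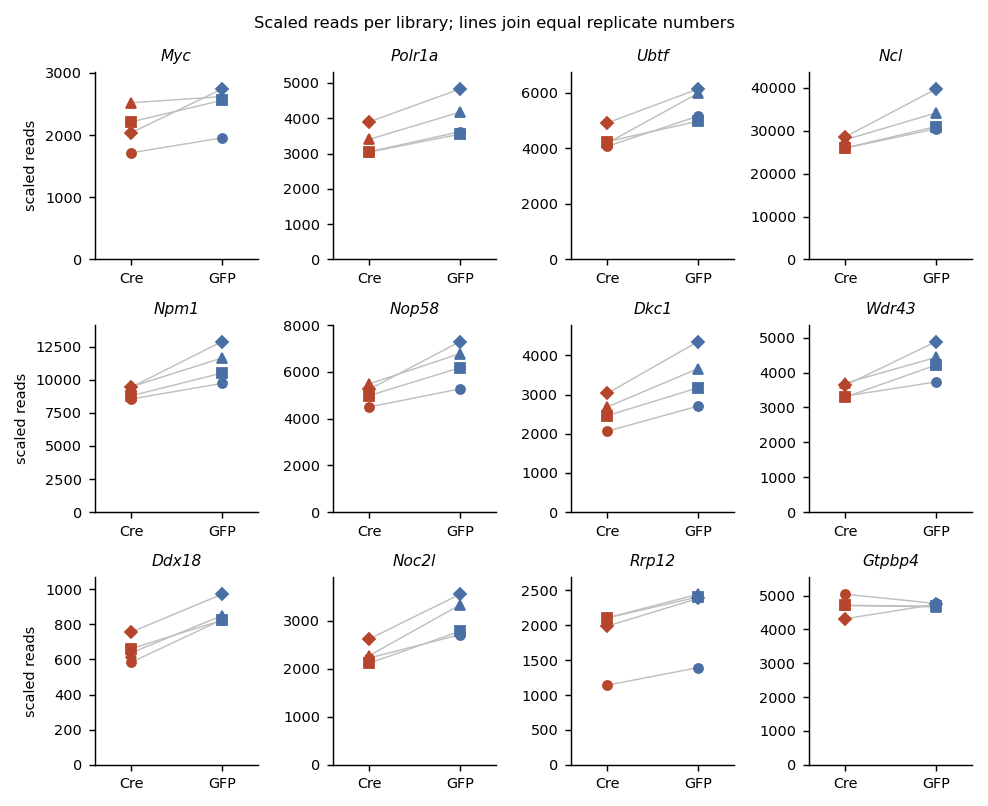
Scaled reads of 12 members in each library, Cre left and GFP right, with lines joining equal library numbers and each axis starting at 0. Ubtf, Ncl, Npm1, Wdr43, Ddx18 and Noc2l separate the groups, Myc, Polr1a, Nop58 and Dkc1 overlap but drop within each pair, Rrp12 is low in both libraries numbered 1, and Gtpbp4 is level.

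Part of the spread among the 8 libraries went with the virus and part with the library number. Over the 50 members, the median share of the sum of squares (of log2 values) that went with group was 44.1%, and the median share with library number was 50.7%. The number share was above the group share in 27 members and below it in 23. Library number has more levels than group and takes a larger share even where neither has an effect. These shares are therefore not on an equal footing. Pes1 stood at one end, with 82.6% of its spread with group and 9.91% with number. Dhx33 stood at the other, with 4.14% with group and 93.9% with number. Rrp12, which takes part in export of the subunits, had 1141, 2107, 2108 and 1988 scaled reads in Cre, against 1394, 2407, 2446 and 2386 in GFP. Its libraries numbered 1 were low in both groups, and 89.7% of its spread went with number. Within GFP alone, the ratio of the highest to the lowest library was 1.02 to 1.92 over the members, with a median of 1.28.

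**Figure D4:**
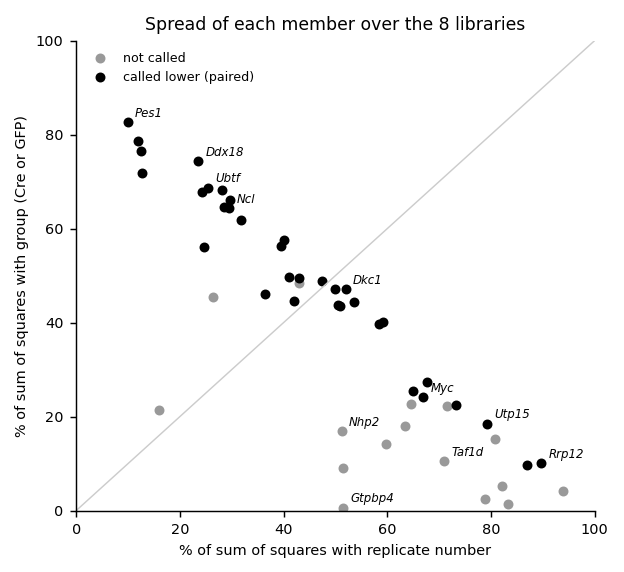
Share of each member's sum of squares over the 8 libraries that goes with library number (horizontal, %) and with group (vertical, %). Points above the diagonal (23 members, among them Pes1 at 82.6% with group) have the larger share with group. Points below it (27 members, among them Rrp12 at 89.7% with number) have the larger share with number. Library number has more levels than group and takes a larger share even where neither has an effect.

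Per kilobase of exon, most members were well expressed, and 46 of 50 lay above the median of all genes tested. Npm1 was highest with 3398 scaled reads per kilobase in Cre and 4198 in GFP, followed by Ncl with 2661 in Cre and 3320 in GFP. Wdr12, Taf1d and Fbl were lowest, and Fbl had 60.7 in Cre and 71.6 in GFP. The length used joins all annotated exons of a gene, and the ranking depends on it. For Taf1d it is 8949 bases, against 1148 in its longest coding transcript. The levels of some members are uncertain, since 5 of the 50 have a near-identical copy elsewhere in the genome over more than 10% of the transcript (at least 97% identity over at least 100 bases). The copied share was 87.8% for Ddx18, 57.6% for Fbl, 53.8% for Npm1, 39.0% for Nop56 and 15.7% for Wdr12, and reads from such stretches can be lost or shared. In addition, 17 members overlap exons of a gene on the opposite strand, by 1240 bases for Tsr1 with Srr and 598 bases for Noc2l with Samd11, and whether strand was used in counting is not given in the sources used here. In the paired test 5 of the 5 members with such a copy passed as lower, with a median log2 change of -0.30. Of the 17 with an overlap, 11 passed as lower, with a median of -0.24. Among the 30 members with neither, 20 passed as lower, with a median of -0.20. The share over all genes was 21.7%.

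Several members hold genes for small nucleolar RNAs (snoRNAs) within their bounds on the same strand, so that a single transcript can supply both an assembly protein and the guides. Whether each lies in an intron was not checked. Of the 50, 8 hold 29 snoRNA genes, with 8 in Taf1d, 5 in Nop56, 4 in Nop58, 3 each in Ncl, Gnl3 and Wdr43, 2 in Tsr1 and 1 in Dkc1. In the paired test 6 of these 8 host genes passed as lower, with a median log2 change of -0.31, and 28 of the 42 other members, with a median of -0.20. The host genes that did not pass were Taf1d and Tsr1. The snoRNAs themselves are not analysed here.

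The promoters of the members were searched for the motif CACGTG, the E-box that MYC with its partner MAX can bind, since many genes of ribosome synthesis are known MYC targets. RefSeq (GRCm38.p6) gave a window of 300 bases (250 before the start site and 50 from it on) for 43 of the 50 members. The E-box was present on either strand (it reads the same on both) in 9 of 43 members (20.9%), against 12.1% of the 9745 tested genes with a window and 8.09% of all 27025 genes. The stretches from 100 bases before the start to 50 after it are shown for 4 members that passed as lower in the paired test (Wdr43, Ltv1, Mybbp1a and Pes1) and for Dhx33, which did not. They show where the E-box, in capitals, falls against the start site. It begins at base 18 after the start in Wdr43, 29 in Ltv1, 41 in Mybbp1a and 3 in Pes1, and 35 bases before the start in Dhx33.
Wdr43, chr17:71616115-71616264, plus strand: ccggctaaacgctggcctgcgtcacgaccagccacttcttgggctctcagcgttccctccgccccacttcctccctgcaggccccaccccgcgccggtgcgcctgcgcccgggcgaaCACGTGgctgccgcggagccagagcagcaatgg
Ltv1, chr10:13193088-13193237, minus strand: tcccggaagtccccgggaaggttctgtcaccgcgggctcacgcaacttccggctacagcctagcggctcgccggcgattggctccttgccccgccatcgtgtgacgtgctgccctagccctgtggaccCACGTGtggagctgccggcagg
Mybbp1a, chr11:72441227-72441376, plus strand: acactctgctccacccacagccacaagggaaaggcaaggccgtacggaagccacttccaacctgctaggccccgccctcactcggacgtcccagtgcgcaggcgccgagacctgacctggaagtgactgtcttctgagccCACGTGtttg
Pes1, chr11:3963875-3964024, plus strand: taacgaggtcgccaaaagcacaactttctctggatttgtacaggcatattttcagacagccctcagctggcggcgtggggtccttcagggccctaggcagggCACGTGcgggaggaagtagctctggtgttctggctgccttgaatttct
Dhx33, chr11:71004383-71004532, minus strand: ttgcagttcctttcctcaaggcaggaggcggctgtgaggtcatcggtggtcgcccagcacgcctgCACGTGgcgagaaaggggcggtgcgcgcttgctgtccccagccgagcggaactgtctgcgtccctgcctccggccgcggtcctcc

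The calls were then counted by motif. With the E-box in the window, 6 of 9 members passed as lower in the paired test, with a median log2 change of -0.22, and without it 24 of 34, with a median of -0.20. Searches on both strands were also made for CCAAT, the core of the site of NF-Y, and for CCGGAA, a core that ETS factors can bind. CCAAT was found in 34.9% of the 43 members and 42.9% of the tested genes with a window. CCGGAA was found in 46.5% of the members and 31.6% of the tested genes. Members with CCGGAA passed as lower in 10 of 20 cases, with a median of -0.15, and those without it in 20 of 23, with a median of -0.25. With CCAAT 12 of 15 passed, and without it 18 of 28. These are matches of letters and no evidence of binding, and the differences between them were not tested.

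Genes of the same pathway outside the 50 were read from lists assembled by function. In each of these lists 0 genes passed without pairing. Of 42 other small subunit maturation factors, 21 passed as lower and 1 as higher in the paired test, and of 44 other large subunit factors, 20 as lower and 1 as higher. In the same test 21.7% of all genes passed as lower. Their median log2 changes were -0.15 for the small and -0.09 for the large subunit list. Among the 50 members the small and the large subunit genes each had a median of -0.19. Members and lists were chosen with earlier results of these data known, so a difference between them cannot be told apart from that choice. Aatf, Utp6 and Nat10, an acetyltransferase of the small subunit RNA, had log2 changes of -0.34, -0.21 and -0.29. Ddx31, Tex10 and Ddx27 of the large subunit list had -0.23, -0.19 and -0.24. All of these passed as lower in the paired test, and the call for Ddx31 was lost without pair 4, at an adjusted p of 0.0538. The genes that passed as higher, named after their values were seen, were Riok3 of the small subunit list at 0.27 and Gnl3l of the large subunit list at 0.20.

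The RNA exosome, which trims and degrades precursor RNA, had 10 of 14 genes lower and 0 higher in the paired test, with a median log2 change of -0.24. Its nuclease genes Dis3 and Exosc10 had -0.43 and -0.42, with paired adjusted p-values of 0.000231 and 3.91e-05 and unpaired ones of 0.0985 and 0.121 in limma, and Exosc5 had -0.39. Of 10 snoRNP assembly factors 6 were lower and 0 higher, among them Naf1 at -0.43, Ruvbl2, an ATPase, at -0.36, and Snu13 at -0.34. The call for Snu13 was lost without pair 3, at an adjusted p of 0.0564. For other subunits and factors of RNA polymerase I, 3 of 13 were lower and 1 higher. The polymerase I subunit genes Twistnb and Cd3eap had -0.22 and -0.31, and Polr2l, shared by all 3 nuclear polymerases, had 0.38. The calls for Twistnb and Polr2l were lost without pair 4, at adjusted p-values of 0.0722 and 0.0655. The third lower gene, named after its values were seen, was the termination factor gene Ttf1 at -0.20, which held in 8 of 12 alternative paired fits. Of 22 RNA polymerase III genes, 5 were lower and 2 higher. The polymerase III genes Polr3e and Polr3g had -0.40 and -0.23, and Gtf3a, which is needed for transcription of the small ribosomal RNA made by polymerase III, had -0.41. The call for Polr3g was lost without pair 3 and without pair 4 (adjusted p up to 0.103), and that for Gtf3a without pair 3 (0.0663). The others, named after their values were seen, were Gtf3c2 at -0.14 and Gtf3c5 at -0.20 among the lower and Polr3b at 0.12 and Gtf3c1 at 0.15 among the higher. Of these, Gtf3c2 held in 6 and Polr3b in 5 of 12 alternative paired fits. In the share of lower genes both polymerase lists lay near the background of 21.7%, unlike the maturation and exosome lists. Their shares of higher genes were 7.69% for polymerase I and 9.09% for polymerase III, against 22.2% of all genes. The change was below 0 in 11 of 13 and 16 of 22 of their genes, against 6476 of all 12910. None of these differences between lists was tested.

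The ribosomal protein genes, which code for the parts of the ribosome itself, did not share the drop. Of 72 tested (82 listed), 3 (4.17%) were lower and 5 (6.94%) higher in the paired test, with a median log2 change of 0.0018. Over all genes 21.7% were lower and 22.2% higher. Their sum averaged 1.04% ± 0.048 of the library total over the 4 Cre libraries and 1.05% ± 0.0576 over the 4 GFP libraries (SD). The sum of the 50 members averaged 0.565% ± 0.0279 in Cre and 0.68% ± 0.0738 in GFP. Rpl23 had a log2 change of 0.13 and Rpl3 one of -0.18, with paired adjusted p-values of 0.0222 and 0.038 in limma. These calls held in 7 and 8 of 12 alternative paired fits, where the adjusted p reached 0.0651 for Rpl23 and 0.161 for Rpl3. The others, named after their values were seen, were Rps20, Rps21, Rpl15 and Rpl22 at 0.12 to 0.15 and Rps27l and Rpl34 at -0.17, and each of them lost its call in at least 1 alternative paired fit. Levels of ribosomal protein genes are uncertain, because many have processed pseudogenes, which were not examined here.

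Of 10 partners and antagonists of MYC, 4 passed as higher and 2 as lower in the paired test, where 22.2% of all genes passed as higher and 21.7% as lower. The share of lower genes was thus near that of all genes. The antagonists Mxd4, Mxd1 and Mxi1, which compete with MYC for MAX, had log2 changes of 0.50, 0.58 and 0.31, with paired adjusted p-values of 0.00057, 0.00075 and 0.00311 and unpaired ones of 0.087, 0.207 and 0.319 in limma. The other genes that passed, named after their values were seen, were Mycl at 0.20, whose call was lost without pair 2 and without pair 4, and on the lower side Mxd3, another antagonist, at -0.54 and Mlxip at -0.21. Of 30 MYC targets outside the nucleolus, 18 were lower and 2 higher, with a median of -0.19. The higher ones, named after their values were seen, were the amino acid transporter genes Slc7a5 at 0.45 and Slc3a2 at 0.22. Genes for nucleotide synthesis were among the lower ones. Cad, which starts pyrimidine synthesis, had a log2 change of -0.70, and Gart and Ppat of purine synthesis had -0.54 and -0.44. All 3 were further below 0 than the -0.43 of Dkc1, the lowest of the 50 members. These passed as lower in the paired test, with unpaired adjusted p-values of 0.137, 0.117 and 0.106 in limma.

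**Figure D5:**
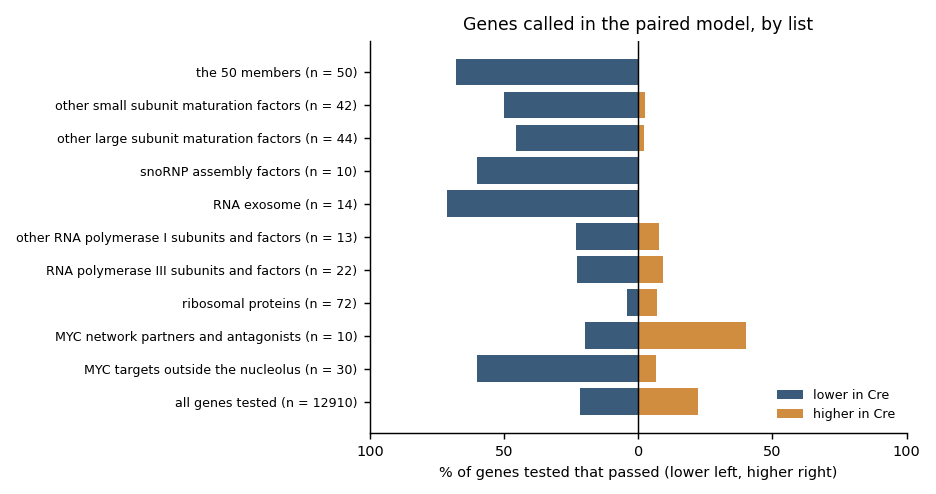
Share of the genes tested in each list that passed the paired test, lower in Cre to the left and higher in Cre to the right, with the number tested in brackets. The 50 members (68.0% lower), the exosome and the maturation lists extend to the left, the ribosomal protein genes hardly depart from 0, and all genes together reach 21.7% lower and 22.2% higher.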

How the data were processed

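The deposited table holds whole numbers that are scaled reads per gene, treated here as a score because the authors had already scaled them between libraries; raw counts were not used. STAR 2.5.3a, featureCounts 1.5.3 and DESeq are named with GRCm38, per the submitters' processing notes; settings and the use of strand are not stated there. Depth before scaling was estimated from gaps among low whole numbers. The 12910 genes with at least 1 CPM in at least 4 libraries were tested (8066 removed) with limma on log2(value + 1), with an intensity trend, two-sided, with Benjamini-Hochberg adjustment over all 12910 and a threshold of 0.05. All 50 members passed this filter. This scale understates changes of low genes. Groups and library numbers came from the sample titles; pairing rests on the correlations given above, not on the labels. Members and gene lists were chosen with earlier results of these data known. Values in every library are given for Myc and, in each role, for up to 4 members with the smallest unpaired p and the one with the largest, and for Rrp12, chosen after its values were seen. The fits were tested on simulated data with pairing built in and with changes larger than those of the members. The depth estimate was tested on simulated data as well. Exon overlaps and snoRNAs came from GENCODE M21, whose coordinates equal those of the table for 15582 of 20941 matched genes. Intervals are 95%.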

Additional observations from a re-analysis of the deposited data

Results flagged for a closer look

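Over 102 groups of 4 libraries (the 50 members and their sum in Cre and in GFP), the highest or lowest library stood far from the others in 10, where chance flags about 1 in 20. In Cre library 1, Nhp2 had 2088 scaled reads (others 1809 to 1842), Nol6 3228 (2666 to 2743) and Rrp12 1141 (1988 to 2108). In Cre library 2, Bop1 had 3585 (3380 to 3388). In GFP library 1, Rrp12 had 1394 (2386 to 2446). In GFP library 2, Nhp2 had 1781 (2073 to 2089), Nol6 2702 (3119 to 3184) and Pes1 2481 (2659 to 2684). In GFP library 4, Gnl3 had 4468 (3599 to 3697) and Mphosph10 1805 (1580 to 1591). For Rrp12 the same-numbered libraries stood apart in both groups, in the same direction.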

How the results depend on the processing

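Pairing decided the calls: with the replicate number as a block 34 members were lower and 0 higher, and without it 0 passed under any of the alternatives run. Under the block, the members called lower numbered 34 with a pseudocount of 0.5 or 5, with a filter at 5 CPM and with voom weights, 31 with no filter, 37 when rescaled to the mean total, 32 by the upper quartile and 31 by median ratios, and 24 to 33 without 1 pair. Of the 34, 24 held in all 12 alternative paired fits.
Over all genes, 108 were higher and 32 lower without the block; 58 were higher with a filter at 5 CPM, and without 1 library 10 to 51 were higher and 1 to 7 lower. With the block 2861 were higher and 2804 lower. The block gave 2861 and 2803 with a pseudocount of 0.5, 2881 and 2812 with 5, 3123 and 2538 with no filter, 2353 and 2626 at 5 CPM, 2607 and 3157 at the mean total, 2915 and 2802 by the upper quartile, 3103 and 2587 by median ratios and 2883 and 2830 with voom. Without pairs 1, 2, 3 and 4 in turn it gave 2648, 2304, 2482 and 2238 higher and 2365, 2289, 2379 and 2100 lower.
The median member change lay between -0.24 and -0.16 in all of these. Changes near 0 turned sign: Gtpbp4 to 0.01 by median ratios, with and without the block, and to 0.03 without Cre 4 or without pair 4 (range without 1 library -0.04 to 0.03); Bms1 to 0.02 without Cre 2, 0.07 without GFP 4 and 0.03 without pair 4 (-0.10 to 0.07); Polr1c to 0.00228 without Cre 3, 0.00479 without GFP 4 and 0.01 without pair 1 (-0.08 to 0.00479). Likewise Polr1e turned to -0.01 without GFP 2 (-0.01 to 0.10), Gnl2 to 0.00128 without GFP 3 (-0.09 to 0.00128) and Dhx33 to 0.02 without GFP 4 (-0.14 to 0.02). The cause was not tested. Where a replicate number marks separate cultures rather than a shared mouse, or the replicates are technical, p-values measure only the spread between these libraries.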
